A study of Mus musculus with 12 samples.

Results

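The 10 genes of hepatic glucose production were followed across the 4 groups of a hepatocyte culture experiment: G6pc, Slc37a4, Pck1, Fbp1, Pcx, Slc2a2, Tat, Sds, Gcgr and Ppargc1a. They are a named pathway list, not chosen by a threshold on their values. The list was chosen with earlier results of these data known, so counts of its members are descriptive. The members were looked up by symbol among the 55487 gene identifiers counted in each library, where all 10 were found. All 10 passed the filter on low counts that left 13535 genes for testing. The cells were primary hepatocytes from mouse liver, kept in culture. Strain, age, sex and the number of donor animals are not given in the sources used here. Control cells received neither a pretreatment nor FAC. FAC is an agent that the labels give only by this abbreviation, with no dose or duration, and the FAC group received it alone. Another group was given liproxstatin-1, a scavenger of lipid reactive oxygen species, on day 2 of culture and then FAC (Lip-1+FAC). The last group was given Mito-TEMPO, a scavenger of mitochondrial reactive oxygen species, also on day 2 of culture, and then FAC (MT+FAC). No group received a scavenger without FAC, so what a scavenger does alone cannot be told apart from what it does in the presence of FAC. Each group had 3 replicates, and nothing in the labels says that these came from separate animals or cultures, so p-values measure the spread between these libraries, which may be technical.

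The liver makes glucose from lactate, glycerol and amino acids when food is scarce. Pyruvate carboxylase and cytosolic phosphoenolpyruvate carboxykinase carry carbon around the irreversible last step of glycolysis, fructose-1,6-bisphosphatase reverses the phosphofructokinase step, and glucose-6-phosphatase together with its transporter releases free glucose in the endoplasmic reticulum. Glucagon, through its receptor and cyclic AMP, raises transcription of several of these genes, with the coactivator PGC-1alpha (Ppargc1a) and glucocorticoids acting on the same promoters, whereas insulin lowers it.

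Counts assigned to genes ranged from 22991598 to 31683376 per library, except for FAC replicate 2 with 52529278, whose file is marked as combined without a statement of what was combined. Levels are given as CPM, read counts scaled to library size, after scaling by the trimmed mean of M-values (TMM). The label of hepatocytes was checked against 10 markers, of which 9 were found and tested. Their summed level, of which Alb was the largest part, was 19377 to 20120 CPM in control and 19270 to 19603 in FAC. It was 15343 to 15997 in Lip-1+FAC and 15561 to 16651 in MT+FAC, so that the sums of the pretreated groups lay below the others. Against FAC, 1 marker was higher and 7 were lower in Lip-1+FAC, and 1 was higher and 6 were lower in MT+FAC. Cyp3a11 went up, from 574 to 647 CPM in FAC to 991 to 1114 in Lip-1+FAC and 851 to 1033 in MT+FAC. Hnf4a overlapped between these groups, at 304 to 327, 283 to 340 and 298 to 366 CPM. A list of 10 Kupffer cell and macrophage genes summed to 244 to 275 CPM in control, 329 to 354 in FAC, 132 to 163 in Lip-1+FAC and 158 to 194 in MT+FAC. Most of that sum was Cd68. The defining Kupffer gene Clec4f was low, at 0.825 to 1.5 CPM in control, 0.365 to 0.689 in FAC and 0.592 to 1.38 over the pretreated groups. Cd14 had 15.2 to 17.1 CPM in control and 27.7 to 37.0 in FAC. In FAC against control, 2 genes of this list were higher and 1 lower. Against FAC, 0 were higher and 3 lower in Lip-1+FAC, and 1 was higher and 2 lower in MT+FAC. The 6 cholangiocyte genes summed to 58.6 to 69.0 CPM in control and to 98.4 to 145 CPM over the other groups. In FAC that sum was led by Sox9 (49.2 to 57.5 CPM, against 15.3 to 19.7 in control), and in the pretreated groups by Spp1 (86.9 to 125 CPM, against 34.8 to 48.1 in control). In FAC against control, 4 of these genes were higher and 0 lower. Against FAC, 1 of them was higher and 4 were lower in each pretreated group. The defining cholangiocyte gene Krt19 was at 3.50 to 4.46 CPM in control, 6.69 to 14.4 in FAC and 1.27 to 2.94 after pretreatment. The 8 endothelial genes summed to 37.1 to 37.8 CPM in control, 35.4 to 35.5 in FAC and 28.6 to 32.6 over the pretreated groups. Most of that sum was Stab2 (25.7 to 29.3 CPM in control and FAC, 15.7 to 22.2 after pretreatment), while 2 endothelial genes were higher and 1 lower against FAC in each pretreated group. The 9 stellate and fibroblast genes summed to 21.3 to 29.1 CPM in control, 30.6 to 39.4 in FAC, 15.1 to 18.4 with liproxstatin-1 and 17.2 to 22.2 with Mito-TEMPO. The sum in FAC was led by Reln (15.9 to 16.2 CPM, against 5.84 to 8.93 in control) and Acta2 (9.13 to 16.4, against 7.52 to 11.1), whereas Dcn was at 2.22 to 2.58 CPM in FAC and 2.80 to 4.70 in control. In FAC against control, 1 stellate gene was higher and 1 lower. The 6 lymphocyte and blood genes were at or under 0.432 CPM, with Cd3e and Nkg7 at 0. The part of cell composition in the results below was not tested, and in bulk RNA fewer hepatocytes and less RNA per hepatocyte cannot be told apart.

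The start regions of 3 members are shown as examples. All 3 were called lower under FAC and are textbook targets of cyclic AMP, forkhead or glucocorticoid signalling. Tat fits the same description and is not shown. The 3 did not move together throughout: against FAC, Pck1 fell and Ppargc1a rose in both pretreated groups. The sequences are from RefSeq on build GRCm38.p6, 5′ to 3′ on the strand of the gene, and end where the first annotated exon begins. Capitals mark the letters searched on both strands: TGACG (the core of a cyclic AMP response element), TGTTTTG (a forkhead sequence) and CCAAT.
Pck1, chr2:173152823-173153047, + strand, 225 bases: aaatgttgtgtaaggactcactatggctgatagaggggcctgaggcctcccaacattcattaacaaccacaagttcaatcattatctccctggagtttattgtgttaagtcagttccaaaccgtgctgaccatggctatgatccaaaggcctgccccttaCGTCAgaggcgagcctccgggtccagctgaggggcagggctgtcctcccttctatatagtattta
G6pc, chr11:101367466-101367560, + strand, 95 bases: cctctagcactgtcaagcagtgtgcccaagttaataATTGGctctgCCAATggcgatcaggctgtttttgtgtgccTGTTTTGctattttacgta
Ppargc1a, chr5:51567727-51567975, - strand, 249 bases: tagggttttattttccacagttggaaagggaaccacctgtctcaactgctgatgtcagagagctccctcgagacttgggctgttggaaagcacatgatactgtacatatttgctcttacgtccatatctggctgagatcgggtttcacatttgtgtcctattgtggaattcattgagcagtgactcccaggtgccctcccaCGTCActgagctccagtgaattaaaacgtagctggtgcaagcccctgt
Pck1 held TGACG on the minus strand at -90 to -86 from the RefSeq start, and Ppargc1a held it on the minus strand at -49 to -45. Slc37a4, with 3 RefSeq starts, held it on the plus strand at -61 to -57 from the first of them and on the minus strand at -82 to -78 from the second. Of 32851 start regions of the same 300 bases (250 before and 50 after the start), 20.8% held TGACG. G6pc held TGTTTTG at -174 to -168, a sequence found in 6.28% of start regions, and TATAAA at -29 to -24, found in 13.6%. CCAAT occurred near the starts of G6pc, Fbp1, Pcx, Slc2a2 and Tat and in 37.4% of all start regions. Another set of searches found no match in the 9 members with a RefSeq entry. These were the forkhead sequence TGTTTAC, present in 3.65% of all start regions, then CAAAGTC, an HNF4A sequence present in 4.44%, and the glucocorticoid receptor core AGAACA, present in 19.0%. A match is a description of letters and not evidence of binding. Sds had no entry.

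The members spanned a wide range of abundance once counts were divided by exonic length. In control cells Fbp1 had 186 ± 29.3 CPM per kilobase (SD, n = 3), Slc37a4 97.9 ± 8.97 and Pcx 82.4 ± 2.85. Slc2a2 with 38.9 ± 9.04, Gcgr with 32.2 ± 4.80 and Tat with 29.5 ± 2.62 CPM per kilobase overlapped one another within their spread. Pck1, usually an abundant liver transcript, had 6.02 ± 1.17 CPM per kilobase. The lowest levels were those of G6pc with 2.07 ± 0.868, Ppargc1a with 1.76 ± 0.110 and Sds with 1.14 ± 0.505 CPM per kilobase. The spread of G6pc reached those of both others, while Ppargc1a and Sds did not overlap within 1 SD. Precision differed with abundance: G6pc rested on 34 to 186 counts per library and Sds on 8 to 84.

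**Figure D1:**
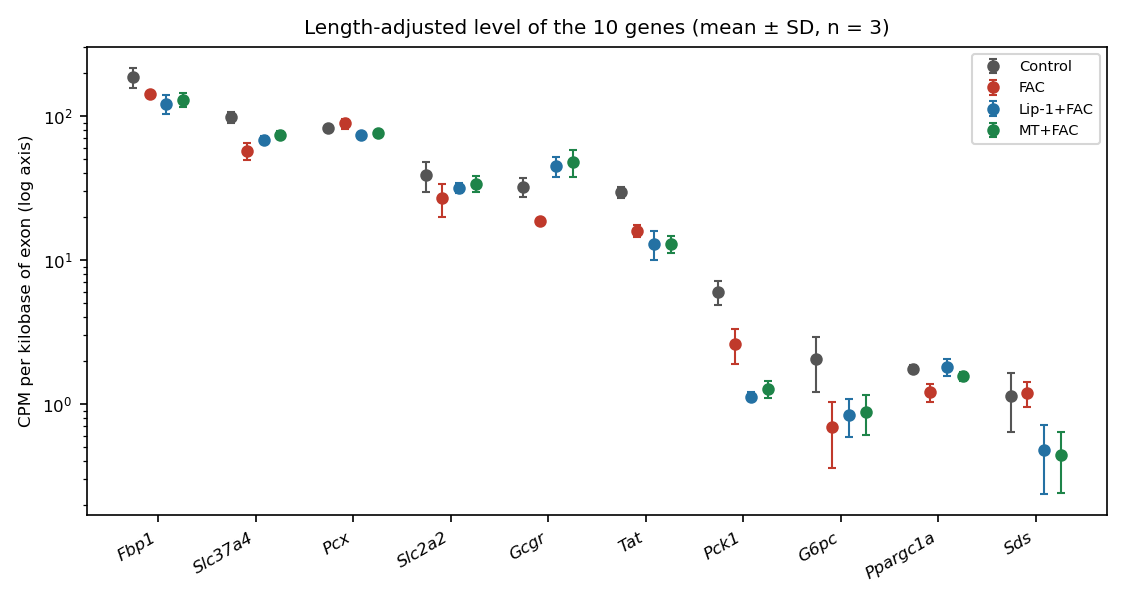
Level of the 10 genes in CPM per kilobase of exon (y axis, log scale), ordered by the control mean; points are group means and bars ± SD over 3 libraries. Fbp1, at 186 CPM per kilobase in control, lies highest in every group, and Pck1 drops from 6.02 in control through FAC to its lowest values in the pretreated groups.

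Most of the pathway was lower in FAC than in control, and no member was called higher with all libraries in the fit. Of the 10 members, 7 fell in FAC against control and 0 rose by edgeR's quasi-likelihood test (adjusted p under 0.05), with Pcx, Slc2a2 and Sds not called. Over all genes tested, 36.6% were called in this comparison and 19.1% were called lower. The same 7 members were the ones whose control and FAC libraries did not overlap, against 46.2% of all genes. The members' median log2 fold change was -0.67, that of all genes -0.01. These contrasts with all genes are descriptive, because the list was chosen with earlier results of these data known. The pretreatments split the list: Gcgr, Ppargc1a and Slc37a4 rose against FAC alone, Pck1, Pcx and Sds fell, and G6pc, Fbp1, Slc2a2 and Tat were not called in either comparison.

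**Figure D2:**
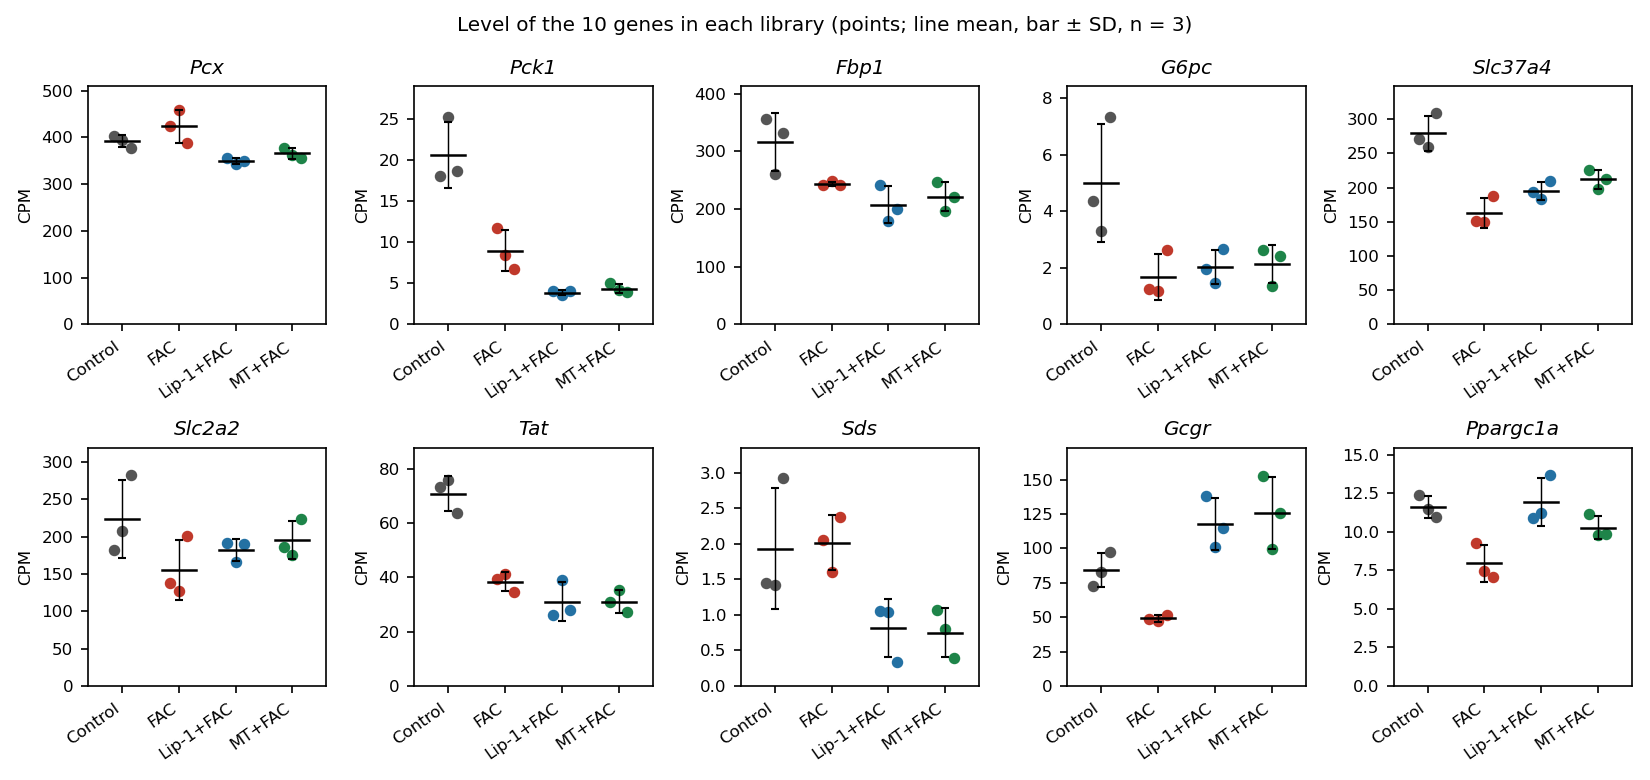
CPM of each gene (y axes, linear, from 0) in every library, by group; points are libraries, lines are means and bars ± SD over 3 libraries. Pck1 forms 3 levels, with control at 18.0 to 25.2 CPM, FAC at 6.78 to 11.7 and the pretreated groups at 3.54 to 5.0, while Gcgr is lowest in FAC and highest after either pretreatment.

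Pcx encodes pyruvate carboxylase, the mitochondrial enzyme that turns pyruvate into oxaloacetate (ENSMUSG00000024892, chr19:4510472-4621752, + strand, 25 merged exons, GENCODE M21 on GRCm38). Its level was 403, 395 and 377 CPM in control, 423, 458 and 389 in FAC, 355, 342 and 350 in Lip-1+FAC, and 378, 363 and 356 in MT+FAC. Control and FAC overlapped, and every library of both pretreated groups lay below every FAC library. The log2 fold change of FAC against control was 0.11 ± 0.0585 (SE), with an adjusted p of 0.148 by edgeR. Without FAC replicate 3 it was 0.17 and called higher (adjusted p = 0.0283). Lip-1+FAC against FAC gave -0.28 ± 0.0586 (adjusted p = 0.00103, edgeR), and -0.16 with offsets for GC content and length, still called (adjusted p = 0.0256). For MT+FAC against FAC the value was -0.21 ± 0.0585 (adjusted p = 0.00779), and it was -0.15 and no longer called without FAC replicate 2. Pcx was the least variable member, with a ratio of 1.21 between its highest and lowest group means.

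Pck1 encodes the cytosolic phosphoenolpyruvate carboxykinase, a classic glucagon-induced and insulin-repressed gene (ENSMUSG00000027513, chr2:173153048-173159273, + strand, 8 merged exons). It had 18.0, 25.2 and 18.7 CPM in control, 11.7, 8.41 and 6.78 in FAC, 4.04, 3.54 and 4.02 in Lip-1+FAC, and 5.0, 4.12 and 3.93 in MT+FAC. Control lay above FAC, and FAC above both pretreated groups, with no overlap between these levels. As a share of the control mean, FAC kept 43.4%, MT+FAC 21.1% and Lip-1+FAC 18.7%. FAC against control gave a log2 fold change of -1.21 ± 0.174 (adjusted p = 3.75e-05, edgeR). Lip-1+FAC against FAC gave -1.21 ± 0.192 (adjusted p = 8.06e-05) and MT+FAC against FAC -1.03 ± 0.188 (adjusted p = 0.000324). With a ratio of 5.34 between its highest and lowest group means, Pck1 was the most variable of the 10 genes. Pck2, the mitochondrial form of the enzyme, had mean levels of 35.2, 33.7, 45.04 and 48.9 CPM in control, FAC, Lip-1+FAC and MT+FAC. Pck2 rose against FAC by 0.41 ± 0.0956 in Lip-1+FAC (adjusted p = 0.00228) and by 0.53 ± 0.0952 in MT+FAC (adjusted p = 0.000269), whereas its FAC against control value was -0.06 (adjusted p = 0.696). The mitochondrial and cytosolic forms thus moved in opposite directions after the pretreatments.

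Fbp1 encodes the liver form of fructose-1,6-bisphosphatase (ENSMUSG00000069805, chr13:62864753-62888282, - strand, 7 merged exons). Its level was 357, 261 and 332 CPM in control, 241, 248 and 241 in FAC, 242, 179 and 200 in Lip-1+FAC, and 247, 197 and 221 in MT+FAC. All 3 control libraries lay above the others, and the FAC and pretreated groups overlapped. FAC lowered it by a log2 fold change of -0.38 ± 0.129 (adjusted p = 0.0389, edgeR). That call is weak: it was lost with offsets for GC content and length (-0.28) and on leaving out control replicate 1 or 3 or any one of the FAC replicates (-0.39 to -0.28). The values against FAC were -0.23 in Lip-1+FAC (adjusted p = 0.175) and -0.14 in MT+FAC (adjusted p = 0.428). Without Lip-1+FAC replicate 1 the former was -0.36 and called (adjusted p = 0.0351). Fbp2, the muscle form, was present at 3.74 CPM in control and 4.81 in FAC (log2 fold change 0.35, adjusted p = 0.242) and fell against FAC to 2.37 CPM in Lip-1+FAC (adjusted p = 0.00192) and 2.95 in MT+FAC (adjusted p = 0.0196). The latter call was lost without FAC replicate 3, MT+FAC replicate 1 or MT+FAC replicate 3 (adjusted p up to 0.0829).

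G6pc encodes the catalytic subunit of glucose-6-phosphatase, the enzyme of the final step (ENSMUSG00000078650, chr11:101367561-101377903, + strand, 5 merged exons). It had 4.36, 3.30 and 7.34 CPM in control, 1.24, 1.19 and 2.62 in FAC, 1.96, 1.47 and 2.66 in Lip-1+FAC, and 2.63, 1.37 and 2.42 in MT+FAC. Every control library lay above all others, and the 3 groups with FAC overlapped. The log2 fold change of FAC against control, -1.61 ± 0.367 (adjusted p = 0.00301, edgeR), was the most negative among the members, and the FAC mean was 33.7% of control. The values against FAC, 0.30 ± 0.386 for Lip-1+FAC (adjusted p = 0.563) and 0.38 ± 0.381 for MT+FAC (adjusted p = 0.455), did not exceed the spread between replicates. They moved with single libraries, to 0.07 and 0.15 without FAC replicate 2, and to 0.74 and 0.81 without FAC replicate 3, with no call in any alternative. The first was also 0.07 without Lip-1+FAC replicate 3. G6pc3, the ubiquitous form of the enzyme, had 8.85, 9.10, 7.75 and 9.96 CPM in control, FAC, Lip-1+FAC and MT+FAC and was called in none of these comparisons (adjusted p of 0.804, 0.0961 and 0.34). G6pc2, the islet form, did not pass the filter.

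Slc37a4 encodes the glucose-6-phosphate transporter that feeds glucose-6-phosphatase (ENSMUSG00000032114, chr9:44396852-44402968, + strand, 11 merged exons). Its level was 271, 259 and 309 CPM in control, 151.3, 150 and 188 in FAC, 194, 183 and 209 in Lip-1+FAC, and 225, 198 and 213 in MT+FAC. The order of the means was control, MT+FAC, Lip-1+FAC and FAC, with control clear of all others and FAC replicate 3 reaching into the range of Lip-1+FAC. FAC against control gave -0.78 ± 0.0896 (adjusted p = 6.29e-06, edgeR). The transporter rose against FAC by 0.26 ± 0.0894 in Lip-1+FAC (adjusted p = 0.0284) and by 0.38 ± 0.0893 in MT+FAC (adjusted p = 0.00309). The Lip-1+FAC call was lost on leaving out FAC replicate 1 (0.22) or 2 (0.21), or replicate 1 (0.27) or 3 (0.21) of Lip-1+FAC. Both pretreated groups stayed below control, by -0.52 for Lip-1+FAC (adjusted p = 0.000385) and -0.40 for MT+FAC (adjusted p = 0.00519), with means of 69.8% and 75.7% of control.

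Slc2a2 encodes GLUT2, the facilitative transporter through which hepatocytes exchange glucose with blood (ENSMUSG00000027690, chr3:28697903-28731359, + strand, 11 merged exons). It had 182, 207 and 282 CPM in control, 138, 127 and 201 in FAC, 191, 165 and 190 in Lip-1+FAC, and 187, 176 and 224 in MT+FAC. All groups overlapped, and replicate 3 was the highest library of control, FAC and MT+FAC. The FAC against control value was -0.53 ± 0.207 with an adjusted p of 0.0756 by edgeR. It passed without FAC replicate 3 (-0.76, adjusted p = 0.00961) and without control replicate 1 (-0.66, adjusted p = 0.042). The values against FAC were 0.23 for Lip-1+FAC (adjusted p = 0.405) and 0.33 for MT+FAC (adjusted p = 0.232), the latter 0.56 without FAC replicate 3 (adjusted p = 0.0339). The Lip-1+FAC value ranged from 0.09 to 0.46 over the alternatives, with no call in any.

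Tat encodes tyrosine aminotransferase, which opens tyrosine breakdown and is a standard glucocorticoid-induced liver gene (ENSMUSG00000001670, chr8:109990437-109999803, + strand, 12 merged exons). Its level was 73.3, 75.8 and 63.8 CPM in control, 39.2, 41.4 and 34.7 in FAC, 26.1, 39.2 and 27.9 in Lip-1+FAC, and 31.0, 35.2 and 27.1 in MT+FAC. Control lay well above the other groups, which overlapped. FAC lowered it by a log2 fold change of -0.88 ± 0.138 (adjusted p = 0.000221, edgeR), to 54.2% of control. Both pretreated groups had -0.31 against FAC, with adjusted p of 0.0963 for Lip-1+FAC and 0.0981 for MT+FAC. Both were called on leaving out replicate 2 of the pretreated group, at -0.51 for Lip-1+FAC (adjusted p = 0.00269) and -0.42 for MT+FAC (adjusted p = 0.0484). They were also called with no filter on low counts, at adjusted p of 0.00343 and 0.00513.

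Sds encodes serine dehydratase, which turns serine into pyruvate (ENSMUSG00000029597, chr5:120476526-120483932, + strand, 9 merged exons). It is a low-count gene, and 29.57% of its exonic bases overlap Plbd2 or Gm15690, so that reads of these genes cannot be fully told apart. It had 1.45, 1.43 and 2.92 CPM in control, 2.05, 1.61 and 2.38 in FAC, 1.06, 1.04 and 0.338 in Lip-1+FAC, and 1.06, 0.799 and 0.389 in MT+FAC. Control and FAC overlapped, and every pretreated library lay below both. FAC against control gave 0.04 ± 0.384 (adjusted p = 0.946, edgeR; 95% interval -0.84 to 0.93). The log2 fold change against FAC was -1.27 ± 0.413 in Lip-1+FAC (adjusted p = 0.0205) and -1.37 ± 0.412 in MT+FAC (adjusted p = 0.0132). The Lip-1+FAC call was lost on leaving out replicate 3 of either FAC (-1.13) or Lip-1+FAC (-0.92), and the MT+FAC call without MT+FAC replicate 3 (-1.09).

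Gcgr encodes the glucagon receptor, which couples to adenylyl cyclase (ENSMUSG00000025127, chr11:120530699-120538986, + strand, 9 merged exons). It had 72.7, 82.5 and 97.6 CPM in control, 48.7, 46.8 and 51.7 in FAC, 138, 101 and 115 in Lip-1+FAC, and 152.4, 99.8 and 126 in MT+FAC. FAC was the lowest group, the pretreated groups were the highest, and neither overlapped control. FAC against control gave a log2 fold change of -0.78 ± 0.167 (adjusted p = 0.00398, edgeR). The receptor rose against FAC by 1.27 ± 0.167 in Lip-1+FAC (adjusted p = 0.000152) and by 1.36 ± 0.167 in MT+FAC (adjusted p = 0.000101), to 240% and 257% of the FAC mean. It also lay above control, by 0.48 ± 0.164 in Lip-1+FAC (adjusted p = 0.0475) and 0.58 ± 0.164 in MT+FAC (adjusted p = 0.0317), but each of these calls was lost under 6 of 16 alternatives. Among those 6 were the fits without control replicate 1 (0.39 and 0.49), without control replicate 2 (0.47 and 0.57) and without replicate 1 (0.36 and 0.41) or replicate 3 (0.51 and 0.58) of the pretreated group itself.

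Ppargc1a encodes PGC-1alpha, a coactivator of gluconeogenic and mitochondrial genes (ENSMUSG00000029167, chr5:51454250-51567726, - strand, 14 merged exons). Its level was 12.4, 11.4 and 10.97 CPM in control, 9.28, 7.47 and 7.07 in FAC, 10.9, 11.2 and 13.7 in Lip-1+FAC, and 11.1, 9.81 and 9.84 in MT+FAC. Every FAC library lay below every library of the other 3 groups, and those groups overlapped. FAC lowered it by a log2 fold change of -0.55 ± 0.132 (adjusted p = 0.00326, edgeR). It rose against FAC by 0.59 ± 0.132 in Lip-1+FAC (adjusted p = 0.00173) and by 0.37 ± 0.132 in MT+FAC (adjusted p = 0.0309). The second of these calls was lost with offsets for GC content and length (0.31) and without FAC replicate 2 (0.33), FAC replicate 3 (0.31), MT+FAC replicate 1 (0.30) or MT+FAC replicate 2 (0.39). Against control the values were 0.04 in Lip-1+FAC (95% interval -0.26 to 0.34) and -0.18 in MT+FAC (-0.48 to 0.13).

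**Figure D3:**
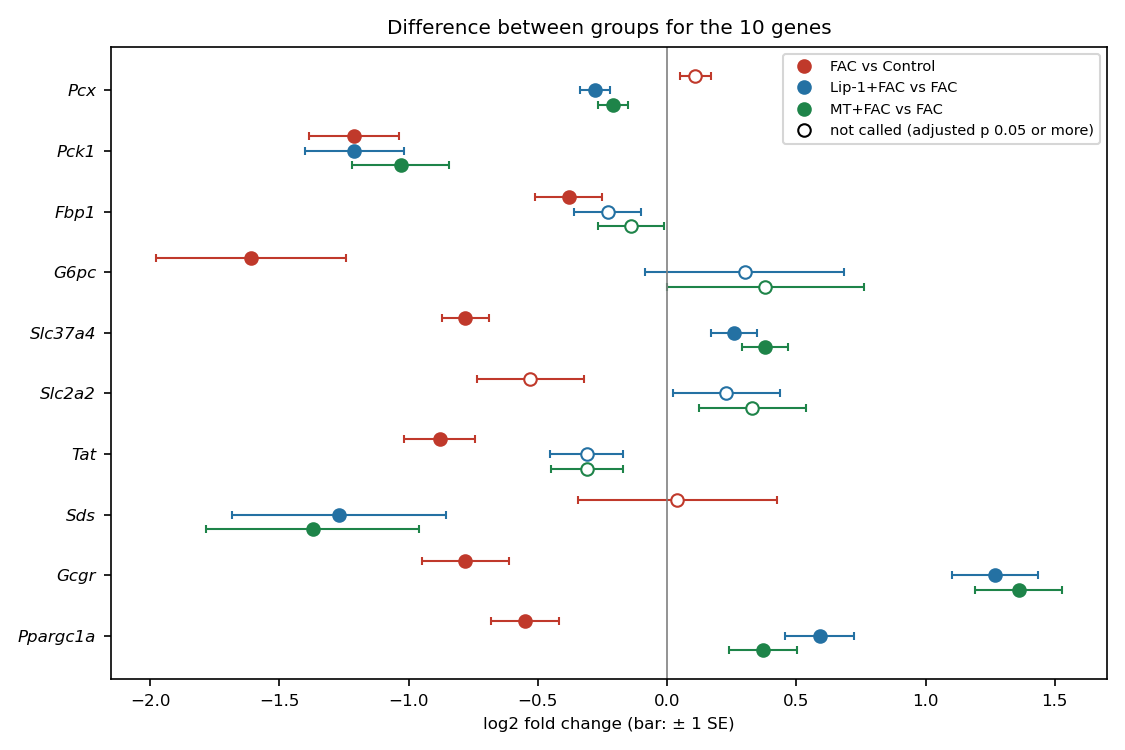
log2 fold change (x axis) of the 10 genes for FAC against control and for each pretreated group against FAC; bars are ± 1 SE, and filled points passed an adjusted p of 0.05. All 7 filled FAC points lie below 0, Pck1 is filled and below 0 in all 3 comparisons, and Gcgr goes from -0.78 to 1.27 and 1.36.

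The FAC libraries serve in all 3 of these comparisons, so a chance deviation of FAC enters the first with the opposite sign from the others, and the values are set side by side without a test of their relation. Lip-1+FAC against FAC had 3 members higher and 3 lower, where 39.9% of all genes were called, 20.7% higher and 19.2% lower. MT+FAC against FAC also had 3 higher and 3 lower, where 40.9% were called, 21.2% higher and 19.7% lower. The median log2 fold change of the members was 0.00 and 0.10, that of all genes 0.00 in both. Without FAC replicate 2, the deepest library, 6 members were called in FAC against control (Fbp1 was lost), 5 in Lip-1+FAC against FAC (Slc37a4 was lost) and 4 in MT+FAC against FAC (Pcx and Ppargc1a were lost).

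Set against control rather than FAC, the pretreated groups still had most of the pathway low. In Lip-1+FAC, 7 members were lower than control and Gcgr was higher, where 30.2% of all genes were called, 15.4% higher and 14.8% lower. The 7 were Pck1 (-2.42 ± 0.19), G6pc (-1.31 ± 0.365), Sds (-1.23 ± 0.418), Tat (-1.19), Fbp1 (-0.61 ± 0.129), Slc37a4 (-0.52 ± 0.0893) and Pcx (-0.17 ± 0.0586). In MT+FAC, 6 were lower and Gcgr was higher, where 19.8% of all genes were called, 9.71% higher and 10.1% lower. These were Pck1 (-2.24 ± 0.186), Sds (-1.33 ± 0.417), G6pc (-1.23 ± 0.361), Tat (-1.19), Fbp1 (-0.51 ± 0.129) and Slc37a4 (-0.40 ± 0.0891). Pck1 and Tat kept these calls in every alternative and Slc37a4 too, whereas Sds lost each under 6 alternatives and Pcx lost its call under 10 of 16. With offsets for GC content and length, Slc37a4 in Lip-1+FAC was -0.34 and Pcx -0.05, and without control replicate 3 Sds in Lip-1+FAC was -0.80. G6pc lost its call under 2 of 15 alternatives in Lip-1+FAC and under 4 of 15 in MT+FAC, with values of -0.92 and -0.84 without control replicate 3. Fbp1 kept its call in Lip-1+FAC and lost that in MT+FAC under 5 of 16. The count in Lip-1+FAC was 5 without Lip-1+FAC replicate 3. That in MT+FAC was 4 without control replicate 1, control replicate 3 or MT+FAC replicate 2, and 3 without MT+FAC replicate 3.

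The scavengers were then compared with each other. None of the 10 members was called between MT+FAC and Lip-1+FAC by edgeR, where 1.34% of all genes were called. The count was also 0 at an unadjusted p under 0.05 and by DESeq2. For Pck1 the log2 difference, MT+FAC minus Lip-1+FAC, was 0.18 with a 95% interval of -0.29 to 0.64. For Slc37a4 it was 0.12 (-0.09 to 0.32), for Gcgr 0.09 (-0.28 to 0.47) and for Tat 0.00 (-0.32 to 0.33). Ppargc1a had the most negative value, -0.21 (-0.52 to 0.09). The low-count genes left wider intervals, -0.80 to 0.95 for G6pc and -1.13 to 0.93 for Sds, so that a difference of that size was not detectable. A missed threshold does not show that the scavengers act alike on these genes.

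**Figure D4:**
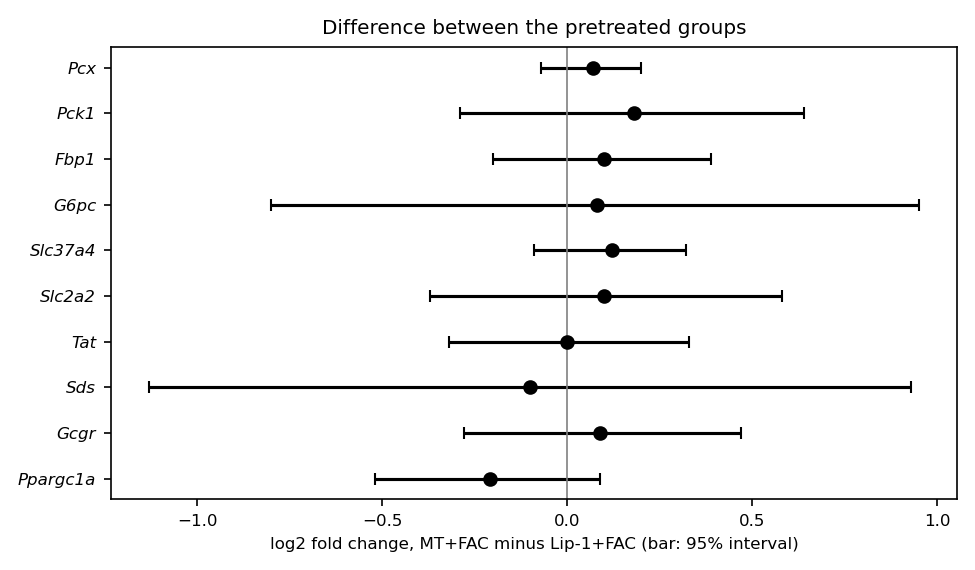
log2 fold change (x axis) of MT+FAC minus Lip-1+FAC for each gene; bars are 95% intervals from the fit with 8 residual degrees of freedom. All 10 intervals contain 0, and those of G6pc and Sds are the widest.

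Other genes of glucose handling were read from lists chosen by role. No test of a list was run, so the counts are to be read against the shares over all genes: 17.5% higher and 19.1% lower in FAC against control, 20.7% and 19.2% in Lip-1+FAC against FAC, and 21.2% and 19.7% in MT+FAC against FAC. Of 19 further gluconeogenic and reversible glycolytic enzymes tested (of 20 listed), 4 rose and 4 fell in FAC against control. Without FAC replicate 3 the 8 calls became 5. In Lip-1+FAC against FAC, 4 of them rose and 11 fell (median -0.24), and in MT+FAC against FAC 5 rose and 11 fell (median -0.25). Several genes that fell in this list, such as Gapdh, Pgk1 and Eno1, have near-identical copies, so their counts are uncertain. Slc25a10 and Slc25a12, mitochondrial carriers of dicarboxylates and of aspartate and glutamate, fell under FAC by 0.54 and 0.35 on the log2 scale and rose in MT+FAC against FAC by 0.49 and 0.40. In Lip-1+FAC against FAC they had 0.29 and 0.26. The call of Slc25a10 was lost without FAC replicate 1 or 3 or Lip-1+FAC replicate 1 or 2 (adjusted p up to 0.0655, edgeR). That of Slc25a12 was lost with offsets for GC content and length (0.16, adjusted p = 0.0616).

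Of 20 genes tested for the irreversible steps of glycolysis and their regulators, 7 rose and 4 fell under FAC (17.5% and 19.1% of all genes). In Lip-1+FAC against FAC, 2 rose and 12 fell (median -0.64, with 20.7% and 19.2% of all genes). In MT+FAC against FAC, 4 rose and 12 fell (median -0.55, with 21.2% and 19.7% of all genes). Among hexokinases with a high affinity for glucose, Hk1 rose by 1.59 ± 0.217 under FAC and had -3.28 and -2.45 against FAC in Lip-1+FAC and MT+FAC, and Hk2 rose by 1.37 ± 0.245 and had -2.62 and -1.54. The glucose transporter Slc2a1 (GLUT1), present at 174 CPM in control, had 324 CPM in FAC, 91.7 after liproxstatin-1 and 137 after Mito-TEMPO.

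Glycogen genes were mixed, with 5 of 18 higher and 4 lower under FAC (17.5% and 19.1% of all genes). The liver glycogen synthase Gys2 fell under FAC (-0.92 ± 0.204) and rose against FAC by 1.42 ± 0.203 with liproxstatin-1 and by 1.27 ± 0.202 with Mito-TEMPO. The muscle form Gys1 had -1.18 and -0.55 in those comparisons. Of 17 genes tested for entry of lactate, alanine, glycerol and fructose, 6 fell and 2 rose under FAC (19.1% and 17.5% of all genes). Against FAC, 10 rose and 2 fell in Lip-1+FAC (median 0.38, with 20.7% and 19.2% of all genes), and 8 rose and 2 fell in MT+FAC (median 0.26, with 21.2% and 19.7%). The monocarboxylate transporter Slc16a7 had -0.49 ± 0.0701 under FAC and 0.95 and 0.66 against FAC, and the alanine aminotransferase Gpt2 had -0.69 ± 0.0629 and then 0.32 and 0.52. The amino acid transporter Slc1a4 went the other way under FAC, rising by 0.89 ± 0.0829, and had 0.15 and 0.07 against FAC (adjusted p of 0.165 and 0.497, edgeR). Lactate dehydrogenase A (Ldha), which has near-identical copies, had -0.90 and -0.67 against FAC.

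Of 25 enzymes tested for the breakdown of gluconeogenic amino acids, 12 fell and 2 rose under FAC (median -0.22, with 19.1% and 17.5% of all genes). Against FAC, 9 rose and 7 fell in Lip-1+FAC (20.7% and 19.2% of all genes), and 11 rose and 8 fell in MT+FAC (21.2% and 19.7%). Homogentisate dioxygenase (Hgd), downstream of Tat in tyrosine breakdown, had mean levels of 40.03, 14.4, 42.9 and 42.3 CPM in control, FAC, Lip-1+FAC and MT+FAC. Its log2 fold change was -1.48 ± 0.106 under FAC (adjusted p = 1.32e-08, edgeR) and 1.58 and 1.56 against FAC. Tat itself, listed above, showed no such rise. Tryptophan dioxygenase (Tdo2) had -0.76 under FAC and 1.27 and 1.00 against FAC, while the glutaminase Gls2 had -1.13 and -1.02 against FAC.

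**Figure D5:**
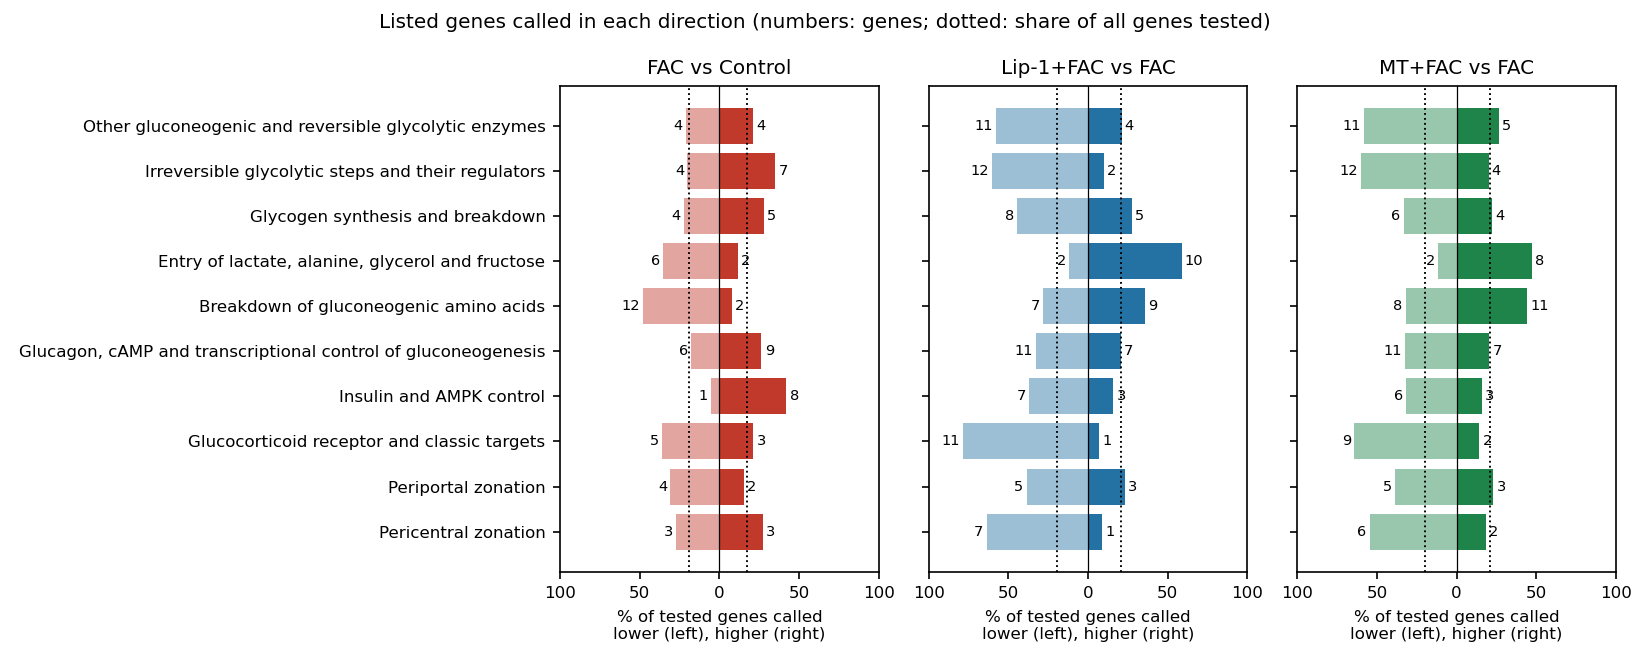
Share of tested genes in each list called lower (left, pale) or higher (right, dark) in 3 comparisons (x axis, percent of tested genes), with the number of genes at each bar and the share over all genes as dotted lines. Amino acid breakdown has 12 genes lower under FAC, and the glucocorticoid list has 11 lower in Lip-1+FAC against FAC.

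The genes that signal to the members did not change as one group. Of 34 tested genes for glucagon, cyclic AMP and transcriptional control, 9 rose and 6 fell under FAC (17.5% and 19.1% of all genes). Against FAC, 7 rose and 11 fell in each pretreated group. The shares of all genes were 20.7% and 19.2% in Lip-1+FAC and 21.2% and 19.7% in MT+FAC. The nuclear receptor Nr4a1, a gene induced by cyclic AMP, rose by 1.37 ± 0.194 under FAC (adjusted p = 2.8e-05, edgeR) and had -0.98 and -1.02 against FAC. Lipin 1 (Lpin1) fell under FAC by 0.93 and the deacetylase Sirt1 rose by 0.84. Cebpb had -0.91 and -0.92 against FAC, calls that were each lost under 7 of 16 alternatives. With offsets for GC content and length its values were -0.30 and -0.33, and 20.7% of its exonic bases overlap Tmem189. Foxo1, the forkhead factor that insulin restrains, had 139, 141.1, 79.9 and 96.2 CPM in control, FAC, Lip-1+FAC and MT+FAC. It had a log2 fold change of 0.02 under FAC (adjusted p = 0.846, edgeR) and fell against FAC by 0.82 in Lip-1+FAC (adjusted p = 4.85e-08) and 0.55 in MT+FAC (adjusted p = 4.2e-06). The CREB coactivator Crtc2 rose under FAC by 0.41 and had -0.31 and -0.41 against FAC. Klf15, a factor of amino acid catabolism, fell under FAC by 0.82 (adjusted p = 0.00671).

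Of 19 insulin and AMPK genes, 8 rose and 1 fell under FAC (17.5% and 19.1% of all genes). Against FAC, 3 rose and 7 fell in Lip-1+FAC (20.7% and 19.2% of all genes), and 3 rose and 6 fell in MT+FAC (21.2% and 19.7%). The 9 calls of MT+FAC became 4 without FAC replicate 1 and 5 without FAC replicate 2, MT+FAC replicate 1 or MT+FAC replicate 3. Igfbp1, an insulin-repressed FOXO1 target often read beside Pck1 and G6pc, had 165, 670, 104 and 113 CPM in control, FAC, Lip-1+FAC and MT+FAC. It rose by 2.02 ± 0.166 under FAC (adjusted p = 8.14e-06, edgeR), where Pck1 and G6pc fell, and had -2.69 and -2.57 against FAC. Irs2, an insulin receptor substrate, had -1.33 against FAC after liproxstatin-1 and -1.07 after Mito-TEMPO.

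Of 14 genes for the glucocorticoid receptor and its classic targets, 3 rose and 5 fell under FAC (17.5% and 19.1% of all genes). Against FAC, 1 rose and 11 fell in Lip-1+FAC (median -0.45, with 20.7% and 19.2% of all genes). In MT+FAC, 2 rose and 9 fell (median -0.31, with 21.2% and 19.7% of all genes). The receptor Nr3c1 had 0.12 under FAC (adjusted p = 0.115) and -0.23 and -0.25 against FAC (adjusted p of 0.00483 and 0.00257, edgeR). Among the targets, Angptl4 (-0.99) and Tsc22d3 (-0.80) fell under FAC, while Per1 rose (0.86). Ddit4 had -1.84 and -1.29, and Sgk1 -1.46 and -0.86, in Lip-1+FAC and MT+FAC against FAC.

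Gluconeogenesis is a periportal function of the lobule, so zonal genes were read as well. Of 13 periportal genes, 2 rose and 4 fell under FAC, and 3 rose and 5 fell against FAC in each pretreated group. Of 11 pericentral genes tested, 3 rose and 3 fell under FAC. Against FAC, 1 rose and 7 fell in Lip-1+FAC, and 2 rose and 6 fell in MT+FAC. Over all genes, 17.5% rose and 19.1% fell under FAC. The shares against FAC were 20.7% and 19.2% in Lip-1+FAC and 21.2% and 19.7% in MT+FAC. Genes of each zone went in both directions. Among periportal genes, Cps1, the first enzyme of the urea cycle, had -1.25 under FAC and 0.54 and 0.57 against FAC, while Gls2 had 0.30, -1.13 and -1.02. The call of Cps1 against FAC was lost under 4 of 16 alternatives in Lip-1+FAC, among them leaving out its replicate 2 or 3 (both 0.49, adjusted p of 0.0633 and 0.0716, edgeR), and under 2 in MT+FAC, among them leaving out its replicate 2 (0.48, adjusted p = 0.0591). That of Gls2 under FAC was lost without control replicate 3 (0.23) or FAC replicate 3 (0.20). Among pericentral genes, the transcription factor Tbx3 had -1.92 under FAC and 0.19 (adjusted p = 0.332, edgeR) and 0.50 against FAC, the last lost without FAC replicate 1 (0.38, adjusted p = 0.0679). The cytochrome Cyp2e1 had 0.42, -1.66 and -1.49, the first lost without control replicate 2 or 3 (both 0.36) or FAC replicate 3 (0.31).

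Levels of the members over the 12 libraries were also compared with one another, as a description in which the points share group and library. Pearson's r of log2 CPM was 0.93 for G6pc with Slc37a4, the enzyme and its transporter, and 0.91 for Pck1 with Tat. G6pc and Slc2a2 had 0.84, and Pcx with Gcgr had the most negative value, -0.80. Among 9000 protein-coding genes with a mean of at least 5 CPM, those nearest to Pck1 were Tst (0.954), Cyp17a1 (0.946) and Aldh4a1 (0.945). Nearest to G6pc were Slc37a4, the bile acid transporter Slc10a1 (0.926) and the copper transporter Slc31a1 (0.923). Sds was nearest to Naa38 (0.971), Atp5e (0.94) and Rpl28 (0.937). Ppargc1a was nearest to Fam214a (0.944), Stradb (0.939) and Sucla2 (0.935).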

How the data were processed

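Messenger RNA was measured in 12 libraries of mouse hepatocytes, prepared with SMART-Seq v4 and Nextera XT and sequenced as paired ends, per the labels' protocols. The authors deposited whole-number read counts per gene, not normalized, in the layout of STAR, which with build GRCm38 is named in the submitters' processing notes. The aligner version and annotation are not given in the sources used here. No molecular identifiers are mentioned, so reads are not independent molecules. The unstranded column was used. Lines that name no gene held 18.8% to 24.2% of the reads and were left out. Of 55487 identifiers, 55227 had a name in GENCODE M21, and the other 260 held 0.0021% of the counts. Reads with several matches are not counted, so genes with near-identical copies are uncertain (searched with blastn 2.17.0+).

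Genes were kept by filterByExpr and scaled by TMM, and edgeR 4.0.16 (R 4.3.3) gave quasi-likelihood tests over the 12 libraries with 4 group means. P-values were two-sided, adjusted by Benjamini-Hochberg over 13535 genes and called under 0.05. SE is the log2 fold change divided by the root of F, and intervals use 8 residual degrees of freedom. The tests add degrees of freedom borrowed across genes, so the intervals can be wider than the p-values imply. The common biological coefficient of variation was 9.71%. On simulated data for FAC against control, 200 genes changed by log2 0.5 were recovered in 45.5% of cases with 4.21% of calls false (13266 genes), and by log2 1 in 74.5% with 8.59% false (13272 genes). Far fewer genes were changed there than the 36.6% called in the data. The adjusted p depends on that share, so these rates do not carry over to the data.

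All 10 members are named in each comparison. From each further list, up to 3 called genes with the largest change in a comparison could be named, and so could genes listed by name to stand beside a member's reaction or regulatory step, whatever their change (among them Pck2, Fbp2, G6pc2, G6pc3, Foxo1, Igfbp1, Creb1, Crtc2, Hnf4a, Nr3c1 and Klf15). Some listed genes are not reported individually here. Genes nearest in pattern were the 3 with the highest Pearson correlation. The members and lists were chosen with earlier results of these data known. Alternatives changed the scaling, filter, columns, depth, libraries in the fit, offsets and test (DESeq2 1.42.0), and left out each replicate.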

Additional observations from a re-analysis of the deposited data

Results flagged for a closer look

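Among the listed genes, 11 differed between MT+FAC and Lip-1+FAC by edgeR's test of the difference (adjusted p under 0.05 over all genes), and none of them is one of the 10 members. Values are log2 fold changes, MT+FAC minus Lip-1+FAC. Prkaa2, a catalytic subunit of AMPK, had -0.38 (adjusted p = 0.00485), Tsc22d3 0.55 (adjusted p = 0.000642) and Angptl4 0.62 (adjusted p = 5.72e-05), and these 3 calls held in every alternative. Zbtb16 had 0.42 and lost its call in 3 alternatives, Pfkfb3 0.45 and Gys1 0.64 in 4 each, Arrdc4 -0.62 and Cyp2a5 -0.51 in 5 each, and Slc2a1 0.58 in 6. Ppp1r3c had 0.90 and Slc16a7 -0.29, with the call lost in 8 alternatives each. Cyp2a5 has a near-identical copy, Cyp2a4, at 98.2% identity, so its counts are uncertain. Groups of 3 libraries were not screened for outliers.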

How the results depend on the processing

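Over the members' log2 fold changes in 6 comparisons there were 947 values under alternatives, of which 868 kept their side of the threshold, 64 lost the call and 15 gained it. The sign changed in 16, called neither with nor without the alternative, and in 0 called ones. On leaving out each replicate in turn, the members called numbered 6 to 8 in FAC against control (7 with all libraries), 4 to 7 in Lip-1+FAC against FAC (6), 4 to 6 in MT+FAC against FAC (6), 5 to 6 in Lip-1+FAC against control (8), 3 to 6 in MT+FAC against control (7) and 0 throughout in MT+FAC against Lip-1+FAC. The other alternatives gave 6 to 8, 5 to 8, 5 to 8, 6 to 8, 5 to 7 and 0 in the same order. G6pc and Sds did not pass the filter at a mean of 5 CPM, which shows in the lower counts. The replicate numbers were not taken as pairs: same-numbered libraries deviated together with correlations of -0.249 to 0.164. With the replicate number as a block, 8 members were called in FAC against control, 8 in each pretreated group against FAC, 7 and 6 against control and 0 between the pretreated groups. Gained under the block were Slc2a2 in FAC against control (-0.54, adjusted p = 0.00145 by edgeR) and in MT+FAC against FAC (0.35, adjusted p = 0.0162), Tat against FAC in Lip-1+FAC (-0.32, adjusted p = 0.013) and MT+FAC (-0.31, adjusted p = 0.015), and Fbp1 in Lip-1+FAC against FAC (-0.25, adjusted p = 0.0243). Sds lost both calls against control (adjusted p of 0.0527 and 0.051). Thinning to the smallest library ended the calls of Sds against control in both pretreated groups and of Pcx in Lip-1+FAC. Intervals cover the spread between libraries, not what FAC replicate 2 combined.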
